A study of Homo sapiens with 38 samples.

Results

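The zinc finger genes of human chromosome 19 were examined in CUT&Tag peak lists of the histone marks H3K27ac and H3K27me3 from K562 cells, an established human leukemia cell line. Members were the protein-coding genes of chromosome 19 in the GENCODE annotation of hg19 whose symbol is ZNF followed by a number and nothing else. This rule gave 240 of the 20163 protein-coding genes scored, and the rule uses no measured value. A further 6 genes of the chromosome with a letter after the number and 3 read-through genes were not counted as members. The comparison sets were the 1240 other protein-coding genes of chromosome 19, the 236 ZNF genes of other chromosomes and all protein-coding genes. In CUT&Tag an antibody against a mark tethers the transposase Tn5 to chromatin, so that DNA next to the mark is cut and sequenced.

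The study optimised CUT&Tag and then made 8 benchmark libraries, which carry the results below. All 8 came from K562 cells, amplified over 15 PCR cycles after DNA extraction with SDS, and without trichostatin A (TSA), a histone deacetylase inhibitor used in some optimisation libraries. For H3K27ac there were 2 libraries with each of 3 antibodies, namely ab177178 at 1:100, ab4729 at 1:100 and Diagenode at 1:50. For H3K27me3 there were 2 libraries with the antibody CST-9733 at 1:100. The authors called peaks on each library with MACS2 and with SEACR, which gave 16 benchmark lists. Because the lists hold peaks and no reads, the depth behind a call cannot be read from them, and the fragment totals that the paper lists for the libraries were not used here. A gene without a peak is one where no peak passed the authors' threshold. Between 0.0129% and 0.188% of the peaks of a list had the same ends in the list of the other replicate, so the replicate lists were distinct. A start peak below means a peak that overlapped the 1.5 kb either side of any annotated transcript start by at least 1 bp.

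Most zinc finger genes of this chromosome belong to the Krüppel-associated box (KRAB) class of C2H2 zinc finger proteins, which bind DNA through arrays of fingers and recruit the corepressor TRIM28 through the KRAB domain. TRIM28 brings SETDB1, which methylates lysine 9 of histone H3, and many of these proteins silence retrotransposons in this way. The genes lie in tandem clusters that grew by duplication, and their 3′ exons are themselves known to carry H3K9me3, a mark not profiled here. H3K27ac is found at promoters and enhancers in use. Polycomb repressive complex 2 places H3K27me3 at silent developmental genes, often those with CpG-rich promoters.

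The start regions of 6 members show the sequence at the extremes of the marks. Each is the 300 bases from 250 before to 50 after the outermost start, in GRCh37, the assembly of hg19, written 5′ to 3′ on the gene's strand with every CG dinucleotide in capitals. ZNF428 and ZNF576 were the clustered members with H3K27ac in 12 of 12 lists and the widest H3K27ac at their starts, ZNF536 and ZNF541 had the most H3K27me3 over the gene, and ZNF98 and ZNF568 were the longest members with no start peak of either mark.
ZNF428 (chr19:44123732-44124031, minus strand): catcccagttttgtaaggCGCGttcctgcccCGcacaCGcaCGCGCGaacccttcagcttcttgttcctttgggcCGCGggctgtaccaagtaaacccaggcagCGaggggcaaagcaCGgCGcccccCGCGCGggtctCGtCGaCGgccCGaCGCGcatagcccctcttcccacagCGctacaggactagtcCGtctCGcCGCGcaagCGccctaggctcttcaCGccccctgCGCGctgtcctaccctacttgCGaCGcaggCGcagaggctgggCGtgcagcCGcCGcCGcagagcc
ZNF576 (chr19:44100294-44100593, plus strand): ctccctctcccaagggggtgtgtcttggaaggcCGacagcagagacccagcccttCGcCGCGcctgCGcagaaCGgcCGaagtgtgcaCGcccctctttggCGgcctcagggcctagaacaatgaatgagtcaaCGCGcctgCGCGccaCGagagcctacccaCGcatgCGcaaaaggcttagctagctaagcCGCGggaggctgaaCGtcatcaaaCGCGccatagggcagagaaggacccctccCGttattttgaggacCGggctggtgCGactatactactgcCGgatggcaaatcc
ZNF536 (chr19:30715548-30715847, plus strand): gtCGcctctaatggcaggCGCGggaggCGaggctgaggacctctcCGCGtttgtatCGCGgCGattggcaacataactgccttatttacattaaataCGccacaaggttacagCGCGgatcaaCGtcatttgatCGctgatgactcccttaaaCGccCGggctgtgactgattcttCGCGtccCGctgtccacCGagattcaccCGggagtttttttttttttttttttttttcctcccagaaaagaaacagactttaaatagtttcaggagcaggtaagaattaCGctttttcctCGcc
ZNF541 (chr19:48076356-48076655, minus strand): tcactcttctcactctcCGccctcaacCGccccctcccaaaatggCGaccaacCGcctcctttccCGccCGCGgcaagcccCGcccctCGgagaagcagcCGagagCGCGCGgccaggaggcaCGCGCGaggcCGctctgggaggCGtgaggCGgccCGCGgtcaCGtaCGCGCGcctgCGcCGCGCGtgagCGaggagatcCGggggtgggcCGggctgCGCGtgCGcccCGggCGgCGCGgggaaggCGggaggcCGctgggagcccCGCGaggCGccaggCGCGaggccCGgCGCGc
ZNF98 (chr19:22715238-22715537, minus strand): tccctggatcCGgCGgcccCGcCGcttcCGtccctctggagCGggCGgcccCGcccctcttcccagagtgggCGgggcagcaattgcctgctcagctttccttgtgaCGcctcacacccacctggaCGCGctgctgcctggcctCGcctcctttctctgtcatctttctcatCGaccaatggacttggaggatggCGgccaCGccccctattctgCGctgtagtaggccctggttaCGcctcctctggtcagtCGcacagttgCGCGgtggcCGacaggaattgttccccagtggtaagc
ZNF568 (chr19:37406968-37407267, plus strand): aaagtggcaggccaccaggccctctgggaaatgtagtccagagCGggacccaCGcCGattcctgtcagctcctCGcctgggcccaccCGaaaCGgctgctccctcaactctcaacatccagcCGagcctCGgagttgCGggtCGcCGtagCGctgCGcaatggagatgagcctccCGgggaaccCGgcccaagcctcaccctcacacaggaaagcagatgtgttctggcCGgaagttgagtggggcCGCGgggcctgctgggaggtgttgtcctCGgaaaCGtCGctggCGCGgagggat
The CG count of these stretches was 37 for ZNF428, 25 for ZNF576, 23 for ZNF536, 49 for ZNF541, 22 for ZNF98 and 23 for ZNF568. At least 1 CG was present in 99.6% of the members' stretches and in 97.6% of those of all protein-coding genes, with a median of 18 in both sets.

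H3K27me3 was nearly missing from the members. By MACS2, 8 of 240 members had an H3K27me3 start peak in CST-9733 replicate 1 and 7 in replicate 2, and by SEACR 6 and 7. The share was 3.13% ± 0.295 (SD, n = 2 libraries) by MACS2 and 2.71% ± 0.295 by SEACR. Of the other genes of chromosome 19, 35.3% ± 4.62 had such a peak by MACS2 and 31.9% ± 0.798 by SEACR. The members' share lay 32.2 points below that of the other chromosome 19 genes by MACS2 and 29.2 points below by SEACR, and the library values of the sets did not overlap. ZNF genes of other chromosomes lay between, at 16.3% ± 3.90 and 14.6% ± 2.10. No test was run on these shares, since genes are not replicates and the mark had 2 libraries.

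**Figure D1:**
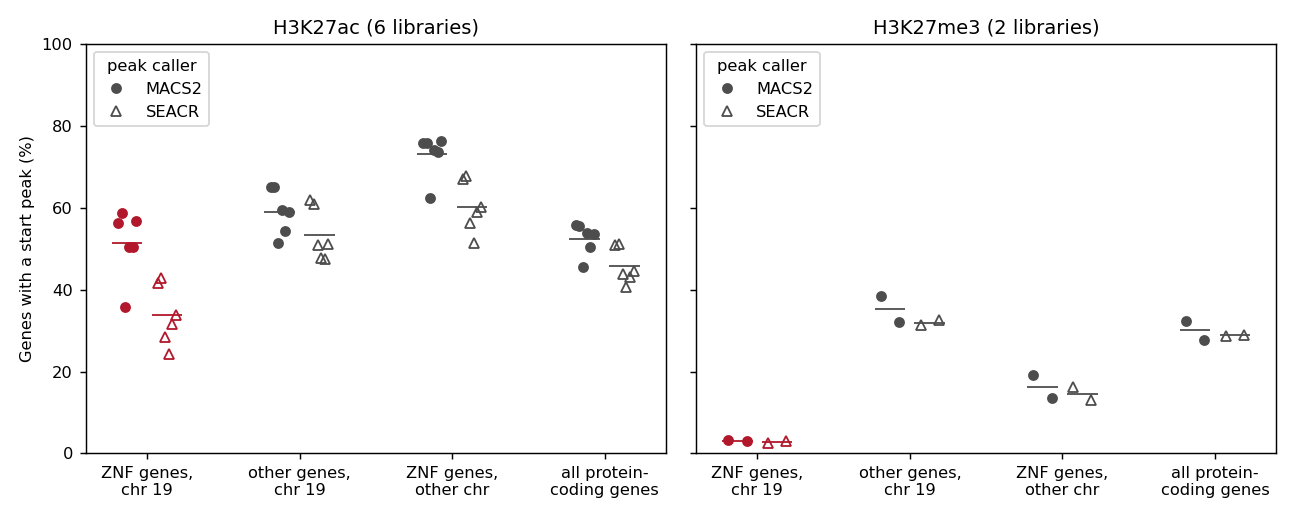
Percent of genes with a start peak (y axis) in each benchmark library for 4 gene sets (x axis), with H3K27ac on the left and H3K27me3 on the right; filled circles are MACS2, open triangles SEACR and short lines the mean over libraries. The ZNF genes of chromosome 19, in red, sit between 2.50% and 3.33% for H3K27me3, while the other genes of the chromosome sit between 31.4% and 38.5%.

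In the stricter count, 5 of 240 members (2.08%) had an H3K27me3 start peak in 2 of 2 libraries by MACS2, against 26.3% of all protein-coding genes, and 5 by SEACR against 25.9%. These were the same 5 genes by both callers. No H3K27me3 start peak was called in either library at 230 members by MACS2 (66.2% of all genes) and at 232 by SEACR (68.2% of all genes). Gene bodies gave the same picture, with a mean of 0.235% ± 0.0318 of a member's body under MACS2 peaks against 13.9% ± 0.610 for the other genes of the chromosome. By SEACR the body means were 0.303% ± 0.0576 and 14.6% ± 1.23. Any H3K27me3 peak inside the body, in any of 4 lists, was present at 11 members (4.58%), against 39.7% of all genes. At least 10% of the body was covered in 4 of 4 lists at 2 members, against 19.7% of all genes.

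The members also lay far from the mark. The median distance from a member's outermost start to the nearest H3K27me3 peak was between 274.5 and 339.5 kb over the 4 lists. For the other genes of chromosome 19 it was between 12.9 and 19.2 kb, and for all protein-coding genes between 25.0 and 35.4 kb. Averaged over the 50 kb either side of the start, the percent of bases under an H3K27me3 peak stayed low for members on both sides. By MACS2 it was 1.24% in the kb before the start and 1.06% in the kb after it.

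**Figure D2:**
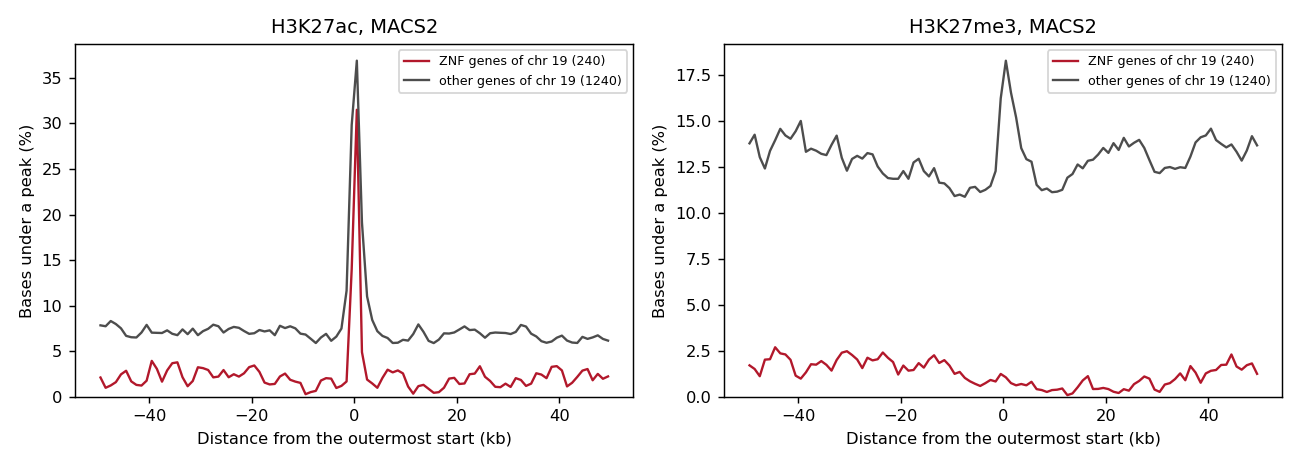
Mean percent of bases under a MACS2 peak (y axis) in 1 kb bins by distance from the outermost start in the direction of transcription (x axis, kb), averaged over libraries and genes, for the 240 ZNF genes of chromosome 19 (red) and the 1240 other genes (grey); the 2 panels have different y scales. H3K27ac of members reached 31.5% in the first kb after the start, and H3K27me3 of members 1.06%.

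The 5 members with H3K27me3 at the start in 4 of 4 lists were ZNF536, ZNF541, ZNF574, ZNF333 and ZNF558. Of these, ZNF558 was the only clustered gene, and the others lay among the 12 members outside clusters. ZNF536, a regulator of neuronal differentiation, had 95.8% and 74.3% of its start windows under MACS2 peaks in replicates 1 and 2, with folds over background of 5.85 and 6.53. Its body of 488.7 kb was covered to 24.7% and 18.6%. ZNF541, which acts in meiosis in the testis, had 30.2% and 29.6% of its start windows covered, with folds of 4.67 and 7.43. Its body was covered to 18.4% and 13.9%. These were the genes with the widest H3K27me3 among the members, and neither had an H3K27ac start peak in any of 12 lists.

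The remaining members of that group also carried H3K27ac. Both marks were called at the starts of ZNF574, ZNF558 and ZNF333 in every MACS2 benchmark list, which is 3 of 240 members (1.25%) against 3.1% of all genes. By SEACR the count was 2, against 2.01% of all genes. These genes have 4, 6 and 10 annotated transcript starts, and a call could come from any of them. Whether both marks lay at the same start was not computed. For ZNF574 the H3K27ac fold was 17.5 in the lowest library, 36.2 at the median and 48.2 in the highest, while H3K27me3 covered 26.2% and 28.3% of its start windows. For ZNF558 the H3K27ac fold ran from 14.5 through a median of 29.1 to 44.04, and H3K27me3 covered 9.19% and 7.95% of the windows with folds of 5.49 and 5.46. ZNF333 had H3K27ac folds from 18.9 to 34.7 with a median of 24.7, and H3K27me3 over 4.87% and 5.08% of its windows. Each of the 3 genes shares a start window with another protein-coding gene, namely GRIK5 for ZNF574, MBD3L1 for ZNF558 and ADGRE3 for ZNF333, so a peak there cannot be assigned to either gene of the pair. Without the members that share a start window, 2 genes, ZNF536 and ZNF541, had H3K27me3 in both libraries by each caller.

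A further 5 members had an H3K27me3 start peak in 1 library by at least 1 caller. ZNF77 was called in replicate 1 by both callers, with 20.8% of its window covered by MACS2, and had no such peak in replicate 2. ZNF414 and ZNF331 were called in replicate 2 by both callers, with 7.46% and 1.75% of the windows covered by MACS2. ZNF57 and ZNF846 were called by MACS2 in 1 library and by SEACR in none. By MACS2 the share with H3K27me3 in cluster 1 was 40% in replicate 1 and 0% in replicate 2. In cluster 2 it was 15.4% in each library, ZNF558 being among the members called. In cluster 8 it was 0% and 2.56%. Of the 210 members of clusters 3 to 10, ZNF331 was the 1 with an H3K27me3 start peak in any list. At ZNF77, ZNF414, ZNF331, ZNF57 and ZNF846 the replicates disagreed, and the windows covered were narrow beside those of ZNF536.

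Members had an H3K27ac start peak about as often as all protein-coding genes by MACS2 and less often by SEACR. The calls varied widely among members. The share of members with an H3K27ac start peak by MACS2 was 56.2% and 58.8% in the ab177178 libraries, 35.8% and 50.4% in the ab4729 libraries, and 50.4% and 56.7% in the Diagenode libraries. By SEACR it was 41.7% and 42.9%, 28.3% and 24.2%, and 31.7% and 33.8%. The means were 51.4% ± 8.36 (SD, n = 6 libraries) and 33.8% ± 7.38. Over all protein-coding genes they were 52.5% ± 3.91 and 45.7% ± 4.40. The MACS2 value of ab4729 replicate 1 stood apart below the others, and this library also had the fewest MACS2 peaks of the 6, at 21317 against 21908 to 34897. Without it the MACS2 mean was 54.5% ± 3.85, close to the 53.9% ± 2.16 of all protein-coding genes over the same libraries.

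Set against the other genes of chromosome 19, members had H3K27ac less often in every library. The difference was -7.63 points ± 4.67 by MACS2, ranging from -15.5 in ab4729 replicate 1 to -2.29 in Diagenode replicate 2. By SEACR it was -19.6 points ± 3.05, ranging from -23.5 to -15.8. The gap was therefore more than 2 times as large by SEACR, whose lists held fewer H3K27ac peaks (10930 to 15614 per library). ZNF genes on other chromosomes had H3K27ac more often than members by both callers, at 73.0% ± 5.36 and 60.2% ± 6.32. Of the 117 other protein-coding genes that start inside the cluster spans, 25.6% had H3K27ac in 6 of 6 libraries by MACS2 and 23.9% by SEACR. For members these shares were 33.3% and 22.9%, and for other chromosome 19 genes outside the spans 51.3% and 45.7%. The lower share was thus not particular to the members, since their neighbours in the spans had it too.

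H3K27ac calls at members ranged from none to every library. By MACS2, 80 of 240 members (33.3%) had an H3K27ac start peak in 6 of 6 libraries, against 43.8% of all genes, and 92 (38.3%) had it in 0 of 6, against 41.4%. The 68 between (28.3%), called in 1 to 5 libraries, were a larger share than the 14.7% of all genes. By SEACR, 55 members (22.9%) had it in 6 of 6, against 36.7%, and 131 (54.6%) in 0 of 6, against 45.9%. By SEACR 54 (22.5%) were called in 1 to 5 libraries, against 17.4%. With the SEACR peaks of the upper 50% of each list by signal, 20 members had it in 6 of 6. The share of all genes at that cut was not computed. Without ab4729 replicate 1, 108 members (45%) had a MACS2 peak in 5 of 5 libraries, against 48.8% of all genes, so that the distance from the background was smaller. By SEACR the count without it was 57 (23.8%), against 37.6%. All 12 H3K27ac lists agreed on 54 members (22.5%), against 36% of all genes. No member had MACS2 peaks in 6 of 6 libraries and SEACR peaks in none, a pattern of 0.188% of all genes. By MACS2, 3 members had a peak in both ab177178 libraries and in none of the others (0.982% of all genes), 0 in both ab4729 libraries alone (0.0446%) and 1 in both Diagenode libraries alone (0.0843%), so calls particular to an antibody were rare.

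Because H3K27me3 was missing, members without H3K27ac mostly had neither mark. No start peak of either mark in any of 16 lists was found at 89 of 240 members (37.1%), against 17.3% of all genes. Among the other genes of chromosome 19 it was 113 of 1240 (9.11%), and among ZNF genes of other chromosomes 27 of 236 (11.4%). The longest such members were ZNF98, ZNF568, ZNF577, ZNF208 and ZNF235, of 141.5, 88.7, 86.1, 78.0 and 76.3 kb. ZNF568, whose mouse counterpart silences a placental Igf2 transcript, shares a start window with ZNF829. These counts say that neither mark passed the authors' thresholds, and expression and other marks were not measured here.

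The 240 members formed 10 clusters of at least 5 members, holding 228 genes, where a gap of over 500 kb between consecutive starts began a new cluster. Numbered from the end of the short arm, they held 5, 13, 25, 37, 5, 24, 23, 39, 16 and 41 members. In hg19, cluster 4 ran from chr19:19779605-24312770 next to the centromere, from ZNF101 to ZNF254, and was the widest at 4.53 Mb. Cluster 7 ran over chr19:44029649-45004576 from ZNF575 to ZNF180. Cluster 9 ran over chr19:55987984-57183151 from ZNF628 to ZNF835. Cluster 10 ran over chr19:57702868-58992597 from ZNF264 to ZNF446 near the end of the long arm.

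**Figure D3:**
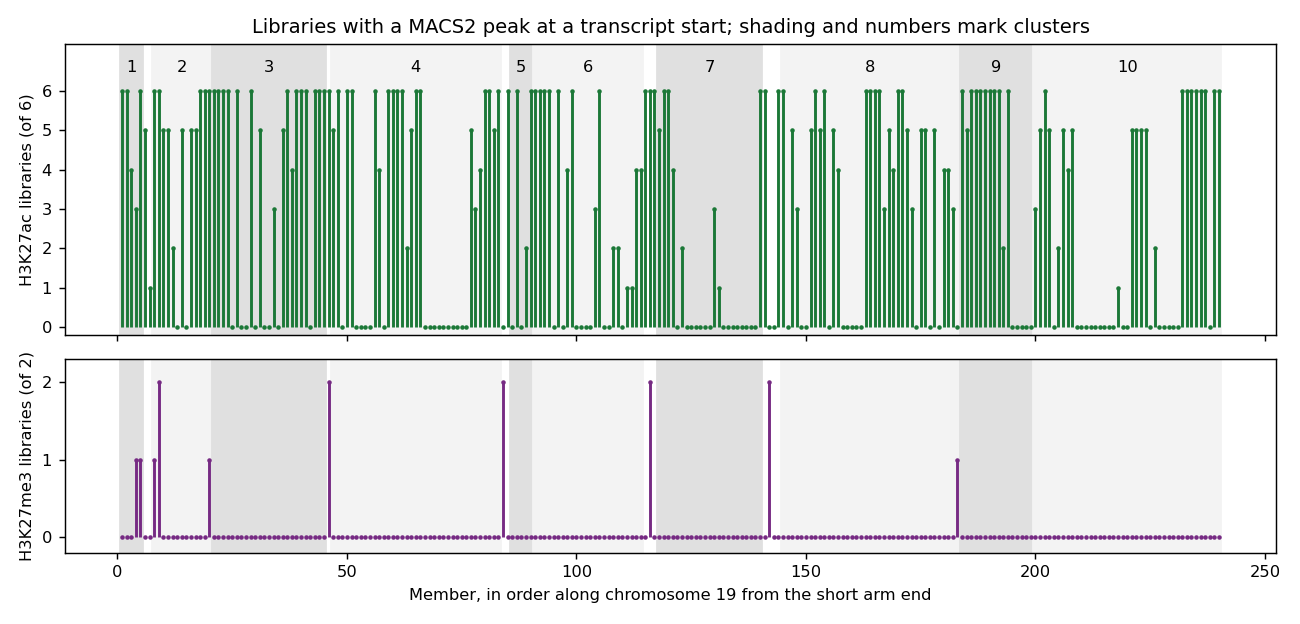
Number of benchmark libraries with a MACS2 start peak (y axes, of 6 for H3K27ac and of 2 for H3K27me3) for each of the 240 members in their order along chromosome 19 (x axis, rank and not position); grey shading and numbers mark the 10 clusters. Marked and unmarked members stand in runs, and the 5 members with H3K27me3 in 2 of 2 libraries lie in cluster 2 or in the gaps between clusters.

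The clusters differed in H3K27ac. The lowest was cluster 7, where 23.9% ± 5.99 of 23 members had a start peak by MACS2 and 12.3% ± 4.28 by SEACR. Its library values, from 17.4% to 30.4% by MACS2, lay below those of clusters 1, 2, 3, 4, 5, 6 and 9 in all 6 libraries and overlapped those of clusters 8 and 10 only through ab4729 replicate 1. In 6 of 6 libraries 3 of its 23 members were called by MACS2 and 2 by SEACR, and 15 and 19 had no peak in any library. The highest was cluster 1, at 83.3% ± 19.7 by MACS2 and 63.3% ± 23.4 by SEACR, but it has 5 members and its library values ran from 60% to 100% and from 20% to 80%. The difference between clusters 1 and 7 was 59.4 points ± 15.2 by MACS2 and 51.0 points ± 21.3 by SEACR.

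Among the clusters of over 10 members, cluster 2 had the highest share by MACS2, 73.1% ± 14.4, and cluster 9 by SEACR, 52.1% ± 6.46. By MACS2 cluster 9 had 63.5% ± 4.71 and cluster 3 had 63.3% ± 6.41, and by SEACR cluster 3 had 44% ± 7.59. Clusters 4, 5, 6, 8 and 10 had means between 43.1% and 54.3% by MACS2 and between 27.2% and 40% by SEACR, and their library values overlapped by MACS2. Members outside clusters had H3K27ac in 7 of 12 cases in 6 of 6 libraries by MACS2.

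**Figure D4:**
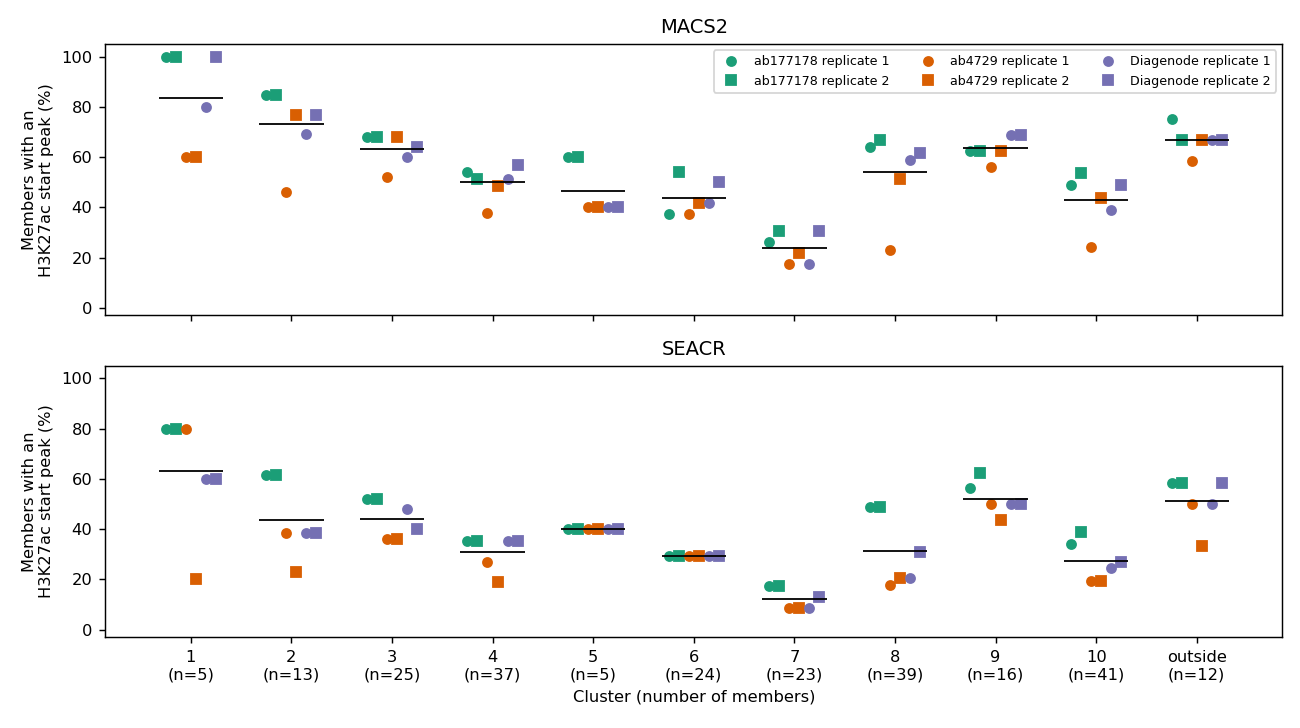
Percent of a cluster's members with an H3K27ac start peak (y axis) for the 10 clusters and the members outside them (x axis, with the number of members), by MACS2 above and SEACR below; each point is a library, colored by antibody, and lines are means over the 6 libraries. Cluster 7 has the lowest mean by both callers, and the MACS2 value of ab4729 replicate 1 is far below the other libraries in clusters 2, 8 and 10.

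The library ab4729 replicate 1 bore unevenly on the clusters. In cluster 8 it had a MACS2 start peak at 23.1% of members while the mean of the other libraries was 60.5% ± 5.90, and in cluster 10 at 24.4% against 46.8% ± 5.56. Members with a MACS2 peak in every library numbered 9 of 39 in cluster 8, 9 of 41 in cluster 10 and 5 of 13 in cluster 2. Without this library they numbered 18, 16 and 9. In cluster 7 the count was 3 with and without it. The part of depth in the low values was not tested.

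Along the chromosome there were runs of marked and of unmarked members. The run lengths that the shares alone would give were not computed. The longest run of consecutive members with no H3K27ac start peak in any of 12 lists held 10 genes, from ZNF43 to ZNF728 in cluster 4, and took in ZNF208, ZNF98 and ZNF99. A run of 9 lay in cluster 10 from ZNF772 to ZNF211. Runs of 8, from ZNF234 to ZNF229, and of 6, from ZNF221 to ZNF284, lay in cluster 7. The longest runs with H3K27ac in 6 of 6 libraries by MACS2 held 7 genes each, from ZNF561 in cluster 2 to ZNF441 in cluster 3 and from ZNF524 to ZNF444 in cluster 9. The former crosses the gap between 2 clusters. In the latter, ZNF580 and ZNF581 share a start window, so the same peak can count for both. A run of 6 went from ZNF274 to ZNF584 in cluster 10, so the cluster held a run of each kind.

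The highest mean folds were close to each other. By mean MACS2 fold of the strongest start peak, ZNF787 came first at 41.7, ZNF524 second at 40.7 and ZNF497 next at 39.6, with ZNF428 of cluster 7 at 38.8 and ZNF627 of cluster 3 at 38.4. For ZNF787 the fold was 22.5 in the lowest library, 44.1 at the median and 58.9 in the highest. For ZNF524 the values were 14.5, 43.9 and 57.1, and for ZNF497 they were 18.9, 40.2 and 53.6. The lowest value of each was in ab4729 replicate 1, and the spread between libraries was wider than the distance between these genes, so their order is not settled. ZNF524 shares a start window with FIZ1.

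In each cluster 2 members were taken by the number of the 12 H3K27ac lists with a start peak, with ties broken by the mean percent of the start windows under MACS2 peaks. All were called in 12 of 12 lists except ZNF77, called in 11. They were ZNF555 with ZNF77 in cluster 1, ZNF414 and ZNF846 in cluster 2, ZNF564 and ZNF627 in cluster 3, ZNF253 and ZNF626 in cluster 4, ZNF181 and ZNF792 in cluster 5, ZNF850 and ZNF146 in cluster 6, ZNF428 and ZNF576 in cluster 7, ZNF888 and ZNF611 in cluster 8, ZNF865 and ZNF628 in cluster 9, and ZNF837 and ZNF497 in cluster 10. That percent, which the choice used, ran from 20.4% for ZNF792 to 78.9% for ZNF428. Of these pairs the one with the widest marking lay in cluster 7, the cluster with the lowest share of marked members, and its genes were neighbours near the start of the cluster. ZNF428 had 66.6% of its windows covered in the lowest library, 81.3% at the median and 86.0% in the highest. ZNF576, which shares a start window with IRGQ and SRRM5, had 39.4%, 83.6% and 93.7%.

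Members with a known role were spread over the range. ZNF274, which binds the 3′ ends of zinc finger genes and recruits SETDB1 there, had H3K27ac in 12 of 12 lists, with a MACS2 fold of 13.1 in the lowest library, 34.4 at the median and 48.8 in the highest. ZNF93, a repressor of L1 retrotransposons, was called in 6 of 6 libraries by MACS2 and 5 by SEACR, with folds from 8.73 through 14.0 to 17.0. ZNF91, a repressor of SVA retrotransposons that lies in the same cluster 4, was called by MACS2 in 4 libraries and by SEACR in none. Its folds were 8.93 and 7.77 with ab177178 and 10.5 and 12.8 with Diagenode, and both ab4729 libraries lacked a peak. ZNF224, a KRAB repressor studied in leukemia cells, was called by MACS2 in 3 libraries, with folds of 7.74 and 7.77 with ab177178 and 8.52 in Diagenode replicate 2, and by SEACR in none.

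The other members of that list stood at the ends of the range. ZNF296 was called in 12 of 12 H3K27ac lists, with 49.4% ± 10.7 of its start window covered by MACS2, and it shares that window with GEMIN7 and MARK4. ZNF382, ZNF154 and ZNF350, the last a partner of BRCA1, had no start peak of either mark in any list. ZNF382 shares a start window in part with ZNF529, which had H3K27ac in 12 of 12 lists. The shared part held no peak, since ZNF382 had none. The calls of ZNF529, which has 8 transcript starts, thus lay in other parts of its start windows. ZNF331, an imprinted gene, had no H3K27ac start peak and H3K27me3 in replicate 2 as given above.

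Along the gene, H3K27ac of members was concentrated at the start. By MACS2 the body, cut into 5 equal parts from the outermost start, was covered to 10.9%, 2.26%, 1.27%, 1.28% and 1.04%, the last being where the exon that encodes the fingers lies. For the other genes of chromosome 19 the first part was covered to 23.3% and the last to 7.57%. The mean over the whole body was 3.36% ± 1.04 for members and 11.2% ± 3.72 for the other genes by MACS2, and 5.75% ± 2.24 and 20.9% ± 7.20 by SEACR. With the start windows taken out of the body, 0.512% of a member's body was covered by MACS2 and 2.48% by SEACR. The median member was 25.4 kb long and the median other gene of the chromosome 14.0 kb, so a peak of the same width covers less of a member. Cluster 9 had the highest mean body coverage by MACS2, 12.2% ± 4.70, and cluster 6 the lowest, 1.02% ± 0.285. Their median lengths were 14658 and 40957 bp.

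Over the clusters as stretches of chromosome, H3K27me3 was low in most and present in a few. The 10 spans together were covered to 2.05% ± 0.193 by MACS2 and 2.255% ± 0.252 by SEACR, against 14.6% ± 1.02 and 15.2% ± 1.40 of the rest of the chromosome. Clusters 3 and 10 had no H3K27me3 peak in any of 4 lists. Cluster 2 was covered to 11.6% ± 0.963 by MACS2, cluster 9 to 8.16% ± 0.780 and cluster 7 to 1.94% ± 0.299, and the others to under 1%. H3K27ac covered 1.69% ± 0.483 of the spans by MACS2 and 4.78% ± 1.62 of the rest of the chromosome, and 1.08% ± 0.246 of chromosomes 1 to 22, X and Y. By MACS2 the mean over the spans was thus below that of the rest of chromosome 19 and above that of the whole genome, while H3K27me3 covered 6.62% ± 0.533 of the genome.

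Inside the spans, H3K27me3 start peaks were called mostly at genes that are not members. How the covered bases divide among members, other genes and the sequence between genes was not computed. Of 117 other protein-coding genes that start inside the spans, 19 (16.2%) had an H3K27me3 start peak in 2 of 2 libraries by MACS2 and 20 (17.1%) by SEACR, against 1 of the 228 clustered members. These neighbours were themselves below the 26.3% of all genes and the 31.4% of chromosome 19 genes outside the spans by MACS2, and clusters 3, 4, 6 and 10 had none with the mark in 2 of 2 libraries. Of the 19 neighbours with a symbol of zinc finger type, 1 (ZSCAN5B, 5.26%) had it by MACS2, against 18 of the 98 others (18.4%). In cluster 2 they included OR1M1, an olfactory receptor with 63.3% of its body covered by MACS2, and ADAMTS10 with 57.5%. In cluster 9 they included GALP with 63.2%, ZSCAN5B with 44.9% and NLRP9 with 25.7%. In cluster 7 IRGC was covered to 100%, and in cluster 8 SIGLEC5 to 38.0% and SIGLEC14 to 48.5%. These genes were chosen after their values were seen, as examples among those with H3K27me3 in 4 of 4 lists. The callers thus found H3K27me3 peaks next to members in these clusters and few at the members themselves.

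By CpG ratio the marked and unmarked members differed less than marked and unmarked genes elsewhere on the chromosome. In the same 300 bases, the median ratio of observed to expected CpG was 0.744 for the 80 members with H3K27ac in 6 of 6 libraries by MACS2 and 0.683 for the 92 with none. For the other genes of chromosome 19 the medians were 0.807 for 606 genes and 0.375 for 396 genes. Among the 87 members with a ratio of 0.8 or over, 27 (31.0%) had H3K27ac in 6 of 6 libraries, against 312 of 435 (71.7%) of the other chromosome 19 genes. Among the 29 members with a ratio under 0.4, 14 (48.3%) had it, against 86 of 368 (23.4%). The median GC content was 60.3% in marked and 56.2% in unmarked members, and 64.0% and 57.7% in the other genes of the chromosome, which is the same direction. The ratio was taken at the outermost start, while a call could come from any annotated start, and 223 of 240 members had more than 1. With the outermost start only, 68 members had H3K27ac in 6 of 6 libraries by MACS2 in place of 80. The ratio and the peak can thus belong to different starts of a gene. These are descriptions over genes, without a test.

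**Figure D5:**
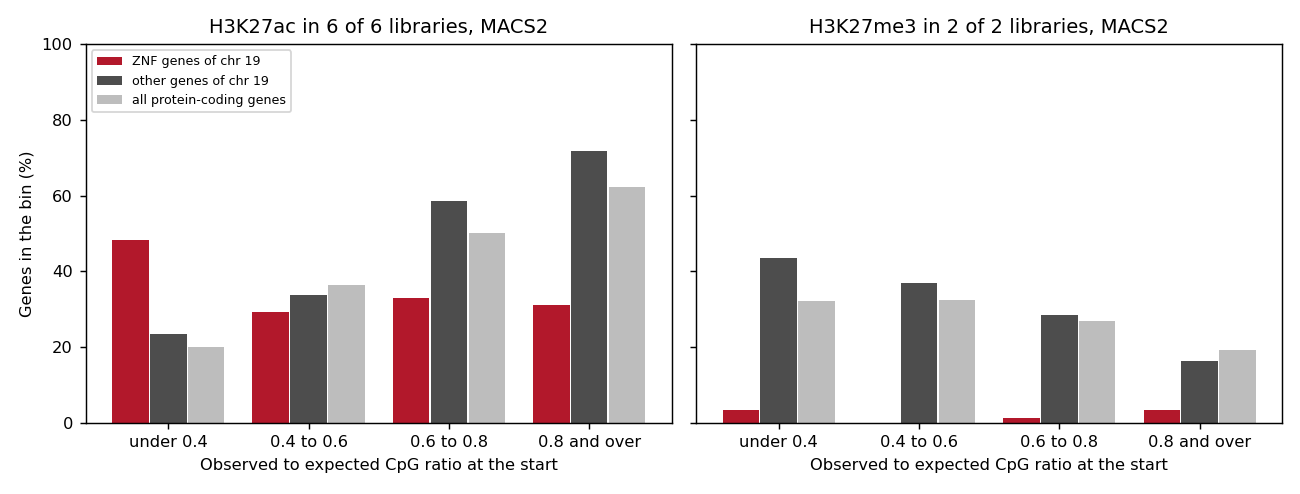
Percent of genes with H3K27ac in 6 of 6 libraries (left) and with H3K27me3 in 2 of 2 libraries (right) by MACS2 (y axis), by the observed to expected CpG ratio in the 300 bases around the outermost start (x axis), for members (red), other genes of chromosome 19 (dark grey) and all protein-coding genes (light grey). With a ratio of 0.8 or over, 31.0% of members and 71.7% of the other genes had H3K27ac. H3K27me3 of members stayed at or under 3.45% in each bin. Calls could come from any annotated start.

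The window of 60 members met that of another protein-coding gene, and 25 of these (41.7%) had H3K27ac in 6 of 6 libraries by MACS2, against 55 of the 180 others (30.6%). By SEACR the counts were 21 (35%) and 34 (18.9%). Over all protein-coding genes the MACS2 counts were 3768 of 5742 genes with a shared window (65.6%) and 5069 of 14421 others (35.2%). Such sharing was rarer among members (25%) than among other genes of the chromosome (41.1%). No member's outermost start window matched that of another member elsewhere at 95% identity over 1000 bases, and the finger arrays in the bodies were not compared.

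A fixed list of corepressor and heterochromatin factor genes, taken as partners of KRAB repression, was mostly marked by H3K27ac, less uniformly by SEACR. Of 16 partner genes, 14 had a start peak in 6 of 6 libraries by MACS2, against 43.8% of all genes. CBX1 and ATRX had it in 5. By SEACR 10 of the 16 had it in 6 of 6, against 36.7% of all genes. TRIM28, the KRAB corepressor, was called in 6 libraries by MACS2 and 5 by SEACR, and the H3K9 methyltransferase SETDB1 in 6 and 1. None had an H3K27me3 start peak by MACS2, where 66.2% of all genes had none. FAM208A (TASOR), a subunit of the HUSH complex, had such a peak by SEACR in 1 library. As a check of the cell line, the erythroid genes GATA1, TAL1, LMO2, KLF1, GFI1B, NFE2 and EPOR had H3K27ac in 6 of 6 libraries by MACS2. Of genes of other cell types, CD3E, CD8A, PAX5, ALB, APOA2, NEUROD1 and SYT1 had it in 0 of 6 by MACS2, while CD3D had it in 5 and CD79A in 1.

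The 30 optimisation libraries, which varied the PCR cycles, the DNA extraction, the dilution and TSA and included Active Motif as a further antibody, each stand alone and were not averaged. By SEACR, 3 to 12 members had an H3K27me3 start peak in the 5 CST-9733 lists (1.25% to 5%), where 18.0% to 25.9% of all genes had one. In the 1 MACS2 list of H3K27me3, 8 members (3.33%) had it, against 28.8% of all genes. For H3K27ac the members' share was below that of all genes in 25 of 25 SEACR lists and in 9 of 9 MACS2 lists. It ran from 4.58% to 33.3% by SEACR and from 3.33% to 43.8% by MACS2. For all genes it ran from 8.625% to 45.2% and from 4.51% to 50.6%. The benchmark MACS2 lists differed in this. Members lay above all genes with ab177178 (56.25% and 58.8% against 55.85% and 55.6%) and in Diagenode replicate 2 (56.7% against 53.5%). They were level in Diagenode replicate 1 (50.4% in both sets) and below with ab4729 (35.8% and 50.4% against 45.5% and 53.9%).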

How the data were processed

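CUT&Tag peak lists of H3K27ac and H3K27me3 from 38 K562 libraries were used, 8 of them benchmark libraries. The submitters' processing notes and the paper list Trim Galore (0.6.6) for trimming, Bowtie2 (2.2.9) for alignment to hg19, Picard (2.6.0) for removal of duplicates, SAMtools (1.3.1) and bedtools (2.25.0). The authors called peaks on each library with MACS2 (q of 1e-5) and SEACR (threshold 0.01 for H3K27ac and 0.1 for H3K27me3), without a control and without pooling replicates. No mapping quality filter is given in the sources used here. In the MACS2 lists the authors deposited a score, a fold over background and −log10 p and q values. In the SEACR lists the authors deposited the total and the highest signal of each peak. The lists hold no counts, so no interval was given, and the library depths printed in the paper were not used here.

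Starts and bodies of protein-coding genes came from GENCODE 44 lifted to GRCh37, whose chromosome 19 of 59128983 bases holds every benchmark peak of that chromosome. Blacklisted regions were not removed. Overlaps were computed in Python (3.11.15) with numpy (2.4.6), and checked against bedtools (2.31.1) on simulated data. Start windows were compared with blastn (2.17.0). Samples were grouped by the submitters' labels. The paper calls the 2 replicates of an antibody biological. SD is between libraries. No test between gene sets or clusters was run: shares are over genes, which are not replicates, and H3K27me3 has 2 libraries. Alternatives changed the window, overlap, peak threshold, symbol rule, shared windows, cluster gap and libraries.

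Genes named were those with a known role from a fixed list, the first 2 of each cluster by H3K27ac lists, those with H3K27me3 in 4 of 4 lists or with both marks, the 5 longest with neither, the 3 with the highest fold per mark, and partner genes of KRAB repression. The members and lists were chosen with earlier results of these data known. Numbers of zinc fingers per protein were not analysed here. Some cell type markers are not reported here.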

Additional observations from a re-analysis of the deposited data

Results flagged for a closer look

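The share of members with an H3K27ac start peak by MACS2 was 35.8% in ab4729 replicate 1, and the nearest of the other 5 H3K27ac libraries was at 50.4%. This gap was 0.636 of the whole range of the 6 libraries, above the Dixon critical value for 6 values. Such a gap was looked for in 8 sets of 6 library values and found in 1, and chance gives about 1 in 20. The libraries came from 3 antibodies. By SEACR the same library, at 28.3%, was not the lowest.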

How the results depend on the processing

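Of 104 comparisons of 16 results with another setting, 85 stayed within 1 SD between libraries, or within 1.5 times for a count. The other 19 moved further. A change of sign, seen in 0, was possible only for the differences between members and other chromosome 19 genes. The H3K27me3 difference between clusters by MACS2, 20 points, had an SD of 28.3, so staying within 1 SD says little there. These settings were scored on chromosome 19 alone, so their counts have no share over all genes. With SEACR peaks of the upper 50% by signal, the count of members with H3K27ac in 6 of 6 libraries was 20, the H3K27me3 body coverage 0.150%, the H3K27ac difference between the highest and lowest cluster 29.2 points (clusters 9 and 4) and the H3K27me3 difference between members and other chromosome 19 genes -22.4 points. Without the members that share a start window, which leaves fewer genes, the counts were 34 for H3K27ac by SEACR and 2 for H3K27me3 by each caller, and the SEACR differences from other chromosome 19 genes -22.9 points for H3K27ac and -30.0 points for H3K27me3. With the start windows taken out of the gene body, coverage was 0.512% and 2.48% for H3K27ac and 0.157% and 0.216% for H3K27me3, by MACS2 and SEACR. With the outermost start only, the H3K27me3 difference was -26.2 points by MACS2 and -24.0 by SEACR, and by SEACR it was -26.8 with 500 bp and -31.5 with 3 kb windows. A cluster gap of 250 kb gives other clusters with a numbering of their own. The H3K27ac difference between the highest and lowest of these was 78.6 points by MACS2 (clusters 11 and 12) and 77.4 by SEACR (clusters 11 and 6). The callers thus differed in the lowest cluster there. The cause of these moves was not tested.

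Leaving out each library in turn gave 80 to 108 and 55 to 64 members with H3K27ac in every library left, by MACS2 and SEACR, and 7 to 8 and 6 to 7 with H3K27me3, where 1 library was left. The H3K27ac difference between clusters ran from 56.5 to 63.7 and from 47.0 to 59.0 points, and that of H3K27me3, with values from 1 library, from 15.4 to 40 and from 15.4 to 20. No paired analysis was possible because the results come from no test, though differences between gene sets were taken within each library. The peak lists carry no depth, and its part in the calls was not tested.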
